A study of Mus musculus with 9 samples.

Results

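Genes linked to whether a lymphocyte leaves a tissue or stays in it were followed across 3 populations of the aged mouse brain. These were group 2 innate lymphoid cells (ILC2), T cells and microglia. The set held 8 genes, found by symbol among 24394 gene rows: the sphingosine-1-phosphate (S1P) receptors S1pr1 and S1pr4, the transcription factor Klf2, the activation antigen Cd69, the integrin alpha chains Itgae and Itga1, and the signalling regulators Rgs1 and Rgs2. All 8 passed the minimum mean count of 10 used for testing. The cells came from brains of C57BL/6 mice aged 20 to 22 months, and every mouse had been injected with 400 ng of interleukin-33 (IL-33) a day for 7 days in every population, so that the effect of IL-33 was not measured. Single-end reads of 75 bp were counted per gene in 2 ILC2, 3 T cell and 3 microglia libraries. Cells were sorted on surface proteins that the labels do not name, and it is not stated whether animals were pooled. The labels do not say that libraries came from separate animals, so the p-values describe the spread of these libraries alone, and part of it may be technical.

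S1P is abundant in blood and lymph and scarce within tissues, and lymphocytes follow this gradient out of a tissue through the receptor S1PR1. KLF2 activates S1pr1 transcription, whereas the membrane protein CD69 binds S1PR1 and takes it off the cell surface. Resident lymphocytes are known for low Klf2 and S1pr1 and for surface CD69, often with the integrin chains CD103 (Itgae), which binds E-cadherin on epithelium, and CD49a (Itga1), which binds collagen. RGS proteins speed up the shut-off of G proteins and so dampen signalling from chemokine and S1P receptors.

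Counts on genes ran from 10544868 to 12585870 in ILC2, from 8376609 to 13585956 in T cells and from 10705652 to 12047894 in microglia. Levels are given as CPM, the count of a gene over the scaled total of its library, and libraries are numbered in the order of the table, with no pairing across populations. The defining markers followed the labels: the summed level of 9 ILC2 markers was 4272 to 4604 CPM in ILC2, 405.5 to 587.6 in T cells and 47.7 to 80.3 in microglia. The 8 T cell markers summed to 608.5 to 800.6 CPM in ILC2, 7732 to 10470 in T cells and 18.8 to 45.2 in microglia. The bulk of that sum in ILC2 was Cd3g, at 559 and 791 CPM, and Cd6 had no count there. The 7 microglia markers summed to 700.7 to 801.5 CPM in ILC2, 528.8 to 1255 in T cells and 32710 to 49520 in microglia. Markers of other cells were present as well: 3 measured neutrophil genes of 4 listed summed to 69.8 to 90.95 CPM in ILC2, 55.45 to 326.3 in T cells and 9736 to 63670 in microglia, and 7 basophil and mast cell genes to 452.9 and 1273 CPM in ILC2 1 and ILC2 2, 0 to 109.9 in T cells and 50.97 to 232.7 in microglia. The 4 B cell genes summed to 347.1 and 121.5 CPM in ILC2, 2.19 to 146 in T cells and 83.4 to 94.7 in microglia. The 4 oligodendrocyte genes summed to 793.8 and 526.4 CPM in ILC2, 249.7 to 375.9 in T cells and 85.2 to 103.5 in microglia. The part of such cells in the ILC2 levels of the 8 genes was not tested.

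S1pr1, the exit receptor, was low in ILC2 and high in T cells. It was at 11.3 and 15.2 CPM in ILC2, at 235, 267 and 138 in T cells, and at 128, 113 and 111 in microglia, with means of 13.3 ± 2.77 in ILC2 (SD, n = 2), 213 ± 67.5 in the T cells (n = 3) and 117 ± 9.09 in microglia (n = 3). No ILC2 library came near any library of the other populations, and every T cell library lay above every microglia library. The log2 fold change was -4.01 ± 0.44 (SE) for ILC2 against T cells (adjusted p = 0.00547, edgeR quasi-likelihood test) and -3.14 ± 0.42 for ILC2 against microglia (adjusted p = 0.00148). Both comparisons use the same ILC2 libraries. T cells differed from microglia by 0.86 ± 0.33, which did not pass (adjusted p = 0.119). In mouse build mm10, S1pr1 lies on the minus strand of chromosome 3 from 115710433 to 115715072 and is protein-coding, with 2 exons in its principal transcript. In such bulk samples, fewer cells that express a gene and less RNA per cell cannot be told apart. S1pr1 is also a gene of endothelial cells and astrocytes. The 7 endothelial markers summed to 65.6 and 46.2 CPM in ILC2, 122.6, 90.9 and 25.7 in the T cells and 807.4, 314.5 and 306 in microglia, and the 6 astrocyte markers to 34.2 to 50.3 CPM in ILC2, 3.86 to 40.2 in T cells (with no count of Gfap and Aqp4) and 168.7 to 287.1 in microglia. Each of these 13 markers had counts in at least 1 ILC2 and 1 microglia library, but single libraries lacked some of them (Gfap, Aldh1l1 and Gja1 in microglia 1 and 3, Aqp4 in microglia 2 and 3 and ILC2 1, Tek in ILC2 2). Slc1a3 made up most of the astrocyte sum in microglia, at 183, 273 and 161 CPM. Ly6c1 alone was at 472, 155 and 151 CPM of the endothelial sum there. The part of endothelial cells and astrocytes in the S1pr1 values was not tested.

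S1pr4, a second S1P receptor of blood cells that acts on migration and cytokine release, did not share this pattern. It was at 51.4 and 21.3 CPM in ILC2, at 44.3, 60.2 and 56.1 in T cells, and at 2.73, 4.84 and 16.1 in microglia. The ILC2 and T cell libraries overlapped, and both populations lay above all microglia libraries. ILC2 differed from T cells by a log2 fold change of -0.56 ± 0.79 (adjusted p = 0.997, edgeR), which was -1.32 without ILC2 1 and -0.057 without ILC2 2. The value was 2.21 ± 0.78 against microglia (adjusted p = 0.115) and 2.76 ± 0.75 for T cells against microglia, the only call for this gene (adjusted p = 0.0380, with 0.00366 to 0.110 among the alternatives). That call was lost on leaving out any library of the 2 populations other than microglia 3, with an adjusted p of 0.0694, 0.0996 and 0.0739 without T cells 1, 2 and 3 and of 0.0818 and 0.110 without microglia 1 and 2. Without microglia 3, which held most of the microglial counts, the log2 fold change was 3.82 for T cells and 3.26 for ILC2 (adjusted p = 0.0304). The ILC2 value against microglia was 1.48 without ILC2 1. S1pr4 is a single-exon gene on the minus strand of chromosome 10, from 81497747 to 81500132.

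The balance of these S1P receptors differed between the populations. Per kilobase of the principal transcript, S1pr4 was 5.81 and 1.78 times S1pr1 in ILC2, against 0.241, 0.287 and 0.520 times in T cells and 0.0273, 0.0547 and 0.185 times in microglia. S1pr4 exceeded S1pr1 in both ILC2 libraries and in no other library, and the 3 populations did not overlap.

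**Figure D1:**
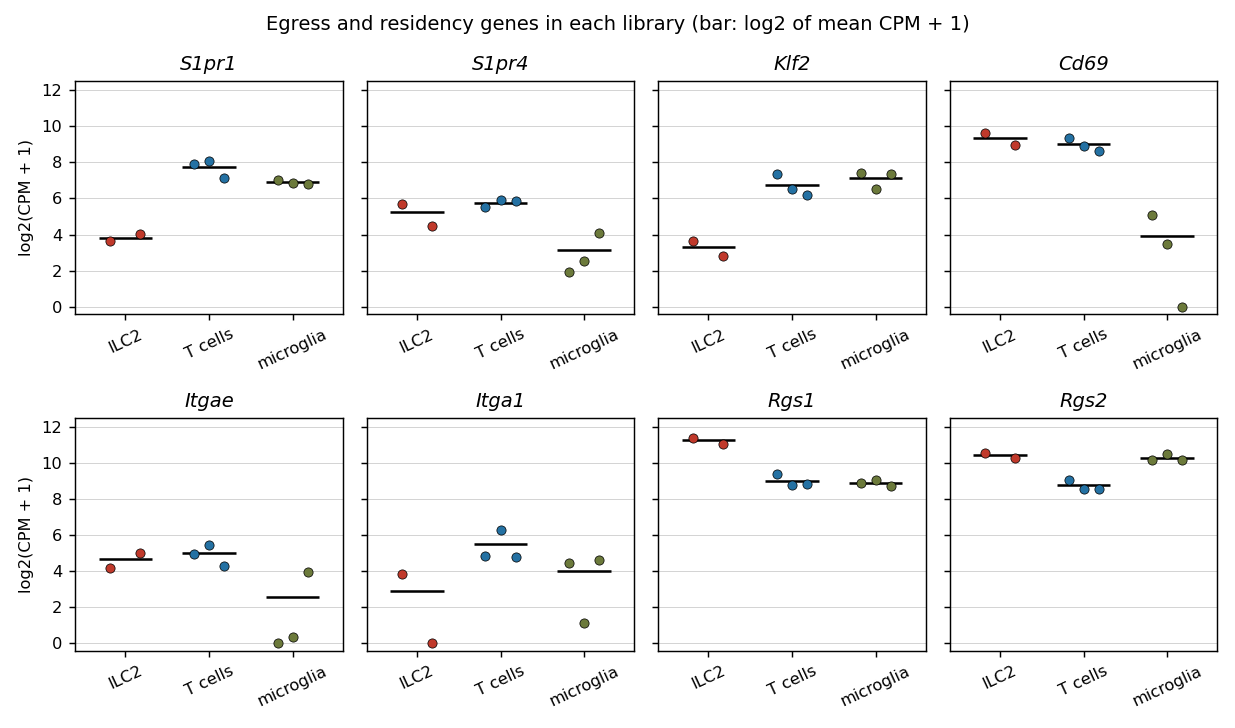
Levels of the 8 genes in each library as log2(CPM + 1), with ILC2 in red, T cells in blue and microglia in green; points are libraries and bars mark the log2 of the mean CPM + 1. S1pr1 and Klf2 are lowest in both ILC2 libraries, and Rgs1 is highest in them. Itga1 spreads widely within populations, and Itgae, Cd69 and S1pr4 do so within microglia.

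Klf2, the activator of S1pr1, was low in the same ILC2 libraries. It was at 11.6 and 6.11 CPM in ILC2, at 159.7, 91.5 and 72.5 in T cells, and at 169, 90.4 and 165 in microglia, with means of 8.87 ± 3.91 in ILC2, 107.9 ± 45.9 in the T cells and 142 ± 44.5 in microglia (SD). ILC2 lay apart from both other populations, which overlapped each other. The log2 fold change was -3.60 ± 0.57 against T cells (adjusted p = 0.0223, edgeR) and -3.997 ± 0.58 against microglia (adjusted p = 0.00228). T cells and microglia differed by -0.39 ± 0.43 (adjusted p = 0.628). The call against T cells was lost without ILC2 1 (adjusted p = 0.0762) or ILC2 2 (adjusted p = 0.130), within a range of 3.47e-08 to 0.130, while the call against microglia held in all 14 alternatives. Neutrophil markers summed to 52240, 9736 and 63670 CPM in microglia 1, 2 and 3. Klf2 was lowest in microglia 2, the library with the lowest of these sums. The part of neutrophil transcripts in the microglial Klf2 level was not tested. Klf2 lies on the plus strand of chromosome 8 from 72319033 to 72321656.

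RefSeq start-site windows were at hand for 4 of the 8 genes: Klf2, Rgs2, S1pr4 and Itga1. Those of the 3 genes called in at least 1 comparison are printed to show how unlike they are in base composition and in the short boxes read by KLF and Sp zinc-finger proteins. Each runs from 250 to 31 bases before the RefSeq gene start in build GRCm38.p6, 5′ to 3′ on the gene's strand, and capitals mark CACCC and GGGCGG on either strand (GGGTG and CCGCCC where the match is on the other strand). No match overlaps another.
Klf2, chr8:72318812-72319031, plus strand: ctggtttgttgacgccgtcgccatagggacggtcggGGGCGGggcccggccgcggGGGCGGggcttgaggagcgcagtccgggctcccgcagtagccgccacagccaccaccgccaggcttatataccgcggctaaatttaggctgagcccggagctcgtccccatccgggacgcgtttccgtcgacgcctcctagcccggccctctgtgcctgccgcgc
Rgs2, chr1:144004180-144004399, minus strand: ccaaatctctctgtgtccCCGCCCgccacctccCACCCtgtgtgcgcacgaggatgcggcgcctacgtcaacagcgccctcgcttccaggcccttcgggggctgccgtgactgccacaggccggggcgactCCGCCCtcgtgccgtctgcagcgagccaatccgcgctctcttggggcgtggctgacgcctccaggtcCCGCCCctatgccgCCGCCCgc
S1pr4, chr10:81500168-81500387, minus strand: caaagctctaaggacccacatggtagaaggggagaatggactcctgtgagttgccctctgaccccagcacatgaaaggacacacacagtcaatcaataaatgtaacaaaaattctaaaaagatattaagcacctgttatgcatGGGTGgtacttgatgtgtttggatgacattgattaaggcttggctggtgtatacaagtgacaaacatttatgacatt
The Klf2 window was 71.4% G and C and the Rgs2 window 72.3%, against 40.9% for S1pr4 and a median of 51.8% over 32851 windows of the same 220 bases. GGGCGG was found 2 times for Klf2, 4 times for Rgs2 and not for S1pr4. Of all windows, 28.5% hold it at least 1 time and 5.91% hold it 3 or more times. CACCC was found 1 time each for Rgs2 and S1pr4 and not for Klf2, against 47.8% of all windows. These are matches of letters only.

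Cd69, whose product removes S1PR1 from the surface, was high in both lymphocyte populations. It was at 791 and 489.6 CPM in ILC2, at 659, 476 and 399.9 in T cells, and at 33.1, 9.98 and 0 in microglia. ILC2 and T cells overlapped, and both lay far above all microglia libraries. ILC2 differed from T cells by a log2 fold change of 0.32 ± 1.17 (adjusted p = 1, edgeR), a direction that turned to -0.058 without ILC2 1. The log2 fold change was 5.48 ± 1.31 for ILC2 against microglia (adjusted p = 0.0284) and 5.16 ± 1.26 for T cells against microglia (adjusted p = 0.0256). The microglial counts behind both were uneven, at 327, 101 and 0. For ILC2 the call was lost without ILC2 1 (adjusted p = 0.0808), ILC2 2 (0.0740) or microglia 2 (0.0978), and the log2 fold change was 6.99 without microglia 1 and 4.89 without microglia 3. For T cells it was lost without T cells 1 (0.0545), T cells 2 (0.0511) or microglia 2 (0.0892), and the log2 fold change was 6.67 without microglia 1 and 4.57 without microglia 3. Among the alternatives the adjusted p was 6.42e-06 to 0.0978 for ILC2 and 5.08e-06 to 0.0892 for T cells. Cd69 lies on chromosome 6 from 129267325 to 129275436.

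Set against each other within a library, Cd69 was 126 and 58.1 times S1pr1 per kilobase in ILC2, against 5.07, 3.21 and 5.25 times in T cells and 0.468, 0.159 and 0 times in microglia. The ratios did not overlap between populations. Cd69 itself overlapped between ILC2 and T cells, and S1pr1 did not.

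The integrin alpha chains passed the test in no comparison. Itgae, the CD103 chain, was at 17.0 and 31.8 CPM in ILC2, at 30.3, 43.1 and 18.8 in T cells, and at 0, 0.296 and 14.7 in microglia. ILC2 and T cells overlapped, and all counts but 3 of the microglia were in microglia 3. No comparison passed, with log2 fold changes of -0.33 ± 1.66 for ILC2 against T cells (adjusted p = 1, edgeR), 2.29 ± 1.65 for ILC2 against microglia (adjusted p = 0.469) and 2.62 ± 1.57 for T cells against microglia (adjusted p = 0.312). Without microglia 3 the value against microglia became 7.25 for ILC2 (adjusted p = 0.0187) and 7.58 for T cells (adjusted p = 0.0124), and without ILC2 1 the difference between ILC2 and T cells turned to 0.053. Itgae lies on chromosome 11 from 73090583 to 73147446, and the span of Haspin overlaps it on the other strand. Whether their exons overlap was not examined.

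Itga1, the CD49a chain, was at 13.2 and 0 CPM in ILC2, at 28.1, 77.6 and 26.3 in T cells, and at 21.3, 1.19 and 23.35 in microglia. It was detected in ILC2 1 alone of the ILC2 libraries, with 163 counts, and a count of 0 in ILC2 2 allows up to 0.238 CPM at a floor of 3 counts. All listed collagen genes were also higher in ILC2 1 than in ILC2 2. Col3a1 was at 27.4 and 0.159 CPM and Col1a2 at 22.5 and 2.54. The part of other cells in the Itga1 count of ILC2 1 was not tested. For Itga1 the T cell libraries lay above all others, and T cells 2 was highest. Microglia 2, the lowest of the microglia libraries, was also the one with the fewest neutrophil transcripts. Their part in the microglial Itga1 level was not tested. No comparison passed: the log2 fold change was -2.74 ± 1.82 for ILC2 against T cells (adjusted p = 0.740, edgeR), -1.21 ± 1.69 for ILC2 against microglia (adjusted p = 0.765) and 1.53 ± 1.48 for T cells against microglia (adjusted p = 0.571). Without T cells 2 the difference of T cells from microglia was 0.75. Without ILC2 2 the ILC2 values were -1.74 against T cells and -0.22 against microglia. Without ILC2 1 no ILC2 count was left, and the fitted values of -11.92 and -10.36 depend on the prior count of the fit (adjusted p = 0.183 and 0.0745). Itga1 spans chromosome 13 from 114953096 to 115101964, and the protein-coding genes Pelo and Gm49395 overlap it on the same strand.

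The beta chains that pair with these products differed between populations. Itgb7, which pairs with the Itgae product, was at 1106 and 1423 CPM in ILC2, at 628, 364 and 820.2 in T cells, and at 48.0, 40.2 and 6.05 in microglia. The log2 fold change against microglia was 5.33 ± 0.75 for ILC2 (adjusted p = 0.00190, edgeR) and 4.26 ± 0.69 for T cells (adjusted p = 0.00312), and ILC2 stood 1.07 ± 0.67 above T cells without passing (adjusted p = 0.710). Itgb1, which pairs with the Itga1 product, was at 73.8 and 46.9 CPM in ILC2, at 473, 364 and 615 in T cells, and at 209.7, 239 and 202 in microglia. Its log2 fold change for ILC2 against T cells was -3.00 ± 0.37 (adjusted p = 0.00915), a call kept in all 14 alternatives. It was also lower in ILC2 than in microglia (-1.85 ± 0.35, adjusted p = 0.00956), a call lost without ILC2 2 (adjusted p = 0.0712, range 2.95e-06 to 0.0712). Cdh1, the E-cadherin that CD103 binds, was at 17.9 and 3.01 CPM in ILC2, 29.8, 71.5 and 139.6 in the T cells, and 0, 0 and 0.313 in microglia. Of 14 tested integrin partners and ligands, 2 were lower and none higher for ILC2 against T cells (median 0.06). The second was Itgb2, the shared chain of the leukocyte integrins, at -2.28 ± 0.38 (adjusted p = 0.0252), a call that needed ILC2 1 (adjusted p = 0.0775 without it), ILC2 2 (0.167) and T cells 2 (0.0692), within a range of 4.30e-07 to 0.167. Against microglia 4 were higher and 2 lower in ILC2 (median 2.15, or 2.11 with genes lacking counts set at their bound), and 5 were higher and none lower in T cells (median 0.84). Itga4, the chain that pairs with Itgb7 or Itgb1 products for entry into tissues, had the lowest p in both, at 3.15 ± 0.40 for ILC2 (2.52 without ILC2 1) and 3.95 ± 0.40 for T cells.

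Rgs1, which damps responses to chemokines and S1P through Gi-coupled receptors, was highest in ILC2. It was at 2707 and 2132 CPM in ILC2, at 657, 440.5 and 448 in T cells, and at 481, 523 and 426 in microglia, with means of 2419.6 ± 406 in ILC2, 515 ± 123 in the T cells and 477 ± 48.6 in microglia (SD). Both ILC2 libraries lay above all others, and T cells and microglia overlapped. By raw count it ranked 16th and 44th among all genes in ILC2 1 and ILC2 2, against ranks 204 to 333 in T cells and 269 to 307 in microglia. The log2 fold change was 2.23 ± 0.28 for ILC2 against T cells (adjusted p = 0.00989, edgeR) and 2.34 ± 0.28 for ILC2 against microglia (adjusted p = 0.000897). Both calls held in all 14 alternatives, with an adjusted p of 6.82e-11 to 0.0439 against T cells and 6.58e-12 to 0.00546 against microglia. T cells and microglia differed by 0.11 ± 0.25 (adjusted p = 0.845), a direction that turned without T cells 1.

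Rgs2, which acts mainly on Gq-coupled receptor signalling, was low in T cells instead. It was at 1505 and 1214 CPM in ILC2, at 539, 379 and 374 in T cells, and at 1159, 1438 and 1164 in microglia, with means of 1359 ± 206 in ILC2, 431 ± 94.0 in the T cells and 1254 ± 159.5 in microglia (SD). The ILC2 and microglia libraries overlapped, and every T cell library lay below all of them. The log2 fold change was 1.66 ± 0.28 for ILC2 against T cells (adjusted p = 0.0247, edgeR), 0.12 ± 0.28 for ILC2 against microglia (adjusted p = 0.881) and -1.54 ± 0.26 for T cells against microglia (adjusted p = 0.00362). The first of these calls was lost without ILC2 1 (adjusted p = 0.113), ILC2 2 (0.0576), T cells 2 (0.108) or T cells 3 (0.0946), within a range of 2.36e-06 to 0.113. The microglia libraries held neutrophil transcripts, at 52240, 9736 and 63670 CPM in sum in microglia 1, 2 and 3, and Rgs2 was highest in microglia 2, the library with the fewest of them. Their part in the microglial Rgs2 level was not tested.

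The 2 RGS genes are neighbours on the minus strand of chromosome 1, Rgs2 from 143999338 to 144004161 and Rgs1 from 144242296 to 144249242. They are 238.1 kb apart, and 1 protein-coding gene, Rgs13, lies between them, with no count in any library. Per kilobase, Rgs1 was 1.42 and 1.38 times Rgs2 in ILC2, against 0.959, 0.914 and 0.943 times in T cells and 0.326, 0.286 and 0.288 times in microglia. The ratio varied little within a population and did not overlap between them. In T cells the side of 1 depends on the transcript lengths used. Before division by length, Rgs1 exceeded Rgs2 in every T cell library, at 657, 440.5 and 448 CPM against 539, 379 and 374.

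**Figure D2:**
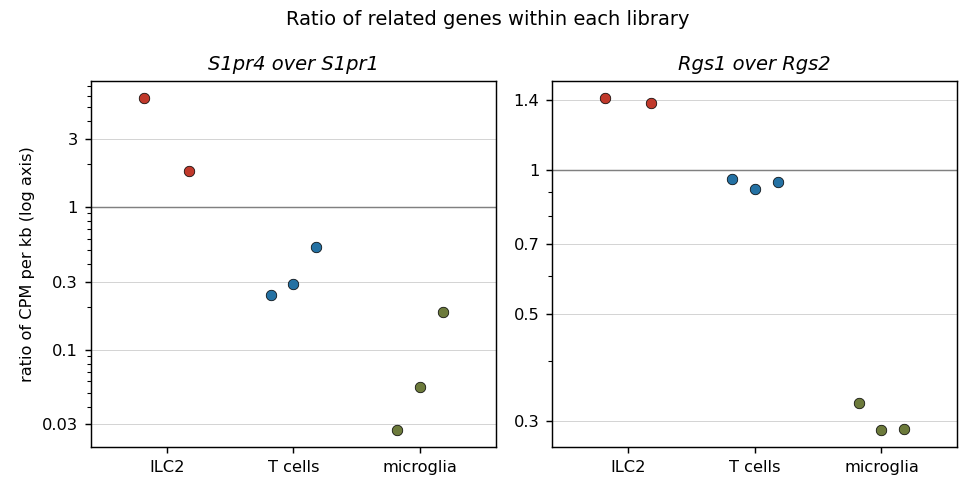
Ratio of S1pr4 to S1pr1 (left) and of Rgs1 to Rgs2 (right) in each library, in CPM per kilobase of the principal transcript, on log axes; points are libraries and the grey line marks a ratio of 1. ILC2 lie above 1 in both panels, T cells below it, and microglia lowest, with Rgs1 at 0.286 to 0.326 times Rgs2. For Rgs1 over Rgs2 in T cells, the side of 1 depends on the transcript lengths used.

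In all, 4 of the 8 genes were called between ILC2 and T cells, S1pr1 and Klf2 lower and Rgs1 and Rgs2 higher, where 0.923% of 13000 tested genes were called (0.431% higher and 0.492% lower). At an unadjusted p under 0.05 the count was also 4, against 9.39%. Between ILC2 and microglia 4 were called, against 9.75% of tested genes: Cd69 and Rgs1 higher (4.99% of tested genes) and S1pr1 and Klf2 lower (4.76%). At an unadjusted p under 0.05 there were 5, against 24.0%. Between T cells and microglia 3 were called, against 13.0%: S1pr4 and Cd69 higher (5.91%) and Rgs2 lower (7.13%). At an unadjusted p under 0.05 there were 4, against 28.2%. Libraries did not overlap for 5, 6 and 6 of the 8 genes in these comparisons, against 25.2%, 43.0% and 37.2% of tested genes. For ILC2 against T cells 2 lay wholly higher (13.4%) and 3 wholly lower (11.8%), for ILC2 against microglia 4 higher (21.9%) and 2 lower (21.1%), and for T cells against microglia 5 higher (18.4%) and 1 lower (18.7%). The median log2 fold change of the 8 genes was -0.45 for ILC2 against T cells, 1.16 for ILC2 against microglia and 1.19 for T cells against microglia, beside -0.009 to 0.004 over all tested genes. Without ILC2 1 or ILC2 2, 2 genes remained called between ILC2 and T cells, S1pr1 and Rgs1. Between T cells and microglia 1 gene was called without T cells 1, T cells 2 or microglia 2.

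**Figure D3:**
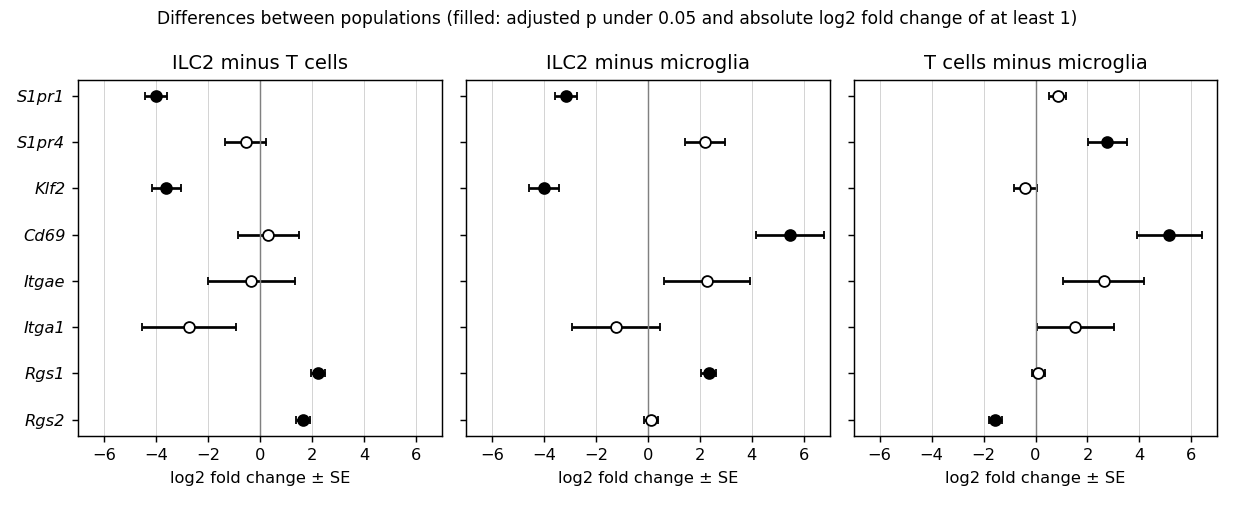
Log2 fold change (points) with its standard error (bars) for the 8 genes in the 3 comparisons; filled points passed an adjusted p under 0.05 and moved by 1 log2 unit or more. S1pr1 and Klf2 stand far to the left in both ILC2 comparisons, and the widest bars belong to Itgae, Itga1 and Cd69.

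Several other listed genes of recirculation and quiescence stood below T cells in the ILC2 libraries. A difference in recirculation and any other difference between these cell types cannot be told apart in this comparison. Of 24 tested genes of recirculation and quiescence, 4 were lower, none was higher and 20 did not pass (14 had an unadjusted p under 0.05, DESeq2 called 10, and limma-voom and the newer quasi-likelihood method 9 each), with a median log2 fold change of -2.62 against 0 over all genes. The libraries of 19 of them lay wholly below those of T cells, against 11.8% of all genes. Those of 2, Il7r and Elovl7, lay wholly above, against 13.4% of all genes. Ly6c2, a surface protein of memory T cells and monocytes, differed from T cells by a log2 fold change of -5.09 ± 0.65 in ILC2 (adjusted p = 0.00989, edgeR), -5.78 without ILC2 2 and short of the threshold without ILC2 1 (adjusted p = 0.0620, range 7.71e-19 to 0.0620). Samd3 and Eomes, Eomes being a transcription factor of cytotoxic lymphocytes, were at 0 in both ILC2 libraries. Against a floor of 3 counts per library, Samd3 was at least 522-fold and Eomes at least 315-fold lower than in T cells (adjusted p = 0.0110 and 0.0116). Eomes lost its call without T cells 1 (adjusted p = 0.0580) or T cells 2 (0.0511), within a range of 7.80e-11 to 0.0580. Ccr7, the chemokine receptor that guides cells into lymph, was at 0 and 3.96 CPM in ILC2, 303, 260.1 and 224 in the T cells and 29.3, 6.23 and 0 in microglia, and did not pass against T cells (log2 fold change -7.04 ± 2.12, adjusted p = 0.258). Foxo1, a transcription factor that drives Klf2, was at 26.9 and 6.82 CPM in ILC2, 47.2, 35.8 and 41.9 in the T cells and 9.503, 19.6 and 11.3 in microglia (adjusted p = 0.683 against T cells). Against microglia, 4 of these genes were higher and 2 lower in ILC2 (median -0.27), the lowest p belonging to Il7r at 5.16 ± 0.37 and then to Tcf7, which had no count in microglia and was at least 45.8-fold higher, and 11 were higher and none lower in T cells (median 1.89).

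The other S1P genes were compared next. Of 14 tested receptors, enzymes and carriers, edgeR called none by either quasi-likelihood method between ILC2 and T cells (median log2 fold change -0.38), while 1 had an unadjusted p under 0.05 and DESeq2 and limma-voom called 1 each. S1pr5, the exit receptor of natural killer cells, was at 4.93 and 1.19 CPM in ILC2, at 22.0, 10.1 and 11.8 in T cells, and had no count in microglia, at least 10.1-fold higher in ILC2 and at least 48.1-fold higher in T cells. The ILC2 call (adjusted p = 0.0396) was lost in 11 of 14 alternatives, leaving out any library among them (range 0.00193 to 0.260), and the T cell call (adjusted p = 0.0151) was lost without T cells 1 (0.0547, range 2.75e-06 to 0.0547). S1pr2, which opposes migration, was at 22.1 and 14.7 CPM in ILC2, 37.0, 50.9 and 43.9 in the T cells and 0.101, 25.8 and 27.2 in microglia (adjusted p = 0.948 for ILC2 against T cells). S1pr3 and the kinase gene Sphk1 stayed below 13 CPM in every library. Against microglia 4 enzymes were lower in ILC2 and 1 gene, S1pr5, was higher, with a median of -1.08. Acer3 and Asah1, ceramidases that free the sphingosine from which S1P is made, led them at -4.17 ± 0.50 (adjusted p = 0.000815) and -3.42 ± 0.47 (adjusted p = 0.00173). T cells gave 5 lower and 1 higher, with -3.51 ± 0.40 for Acer3 and -3.58 ± 0.40 for Asah1 (median -1.16). Sgpl1, the lyase that degrades S1P, was at 105 and 35.2 CPM in ILC2, at 43.1, 100.2 and 81.2 in T cells, and at 499, 648 and 301 in microglia. Its call in ILC2 against microglia was lost without ILC2 2 (adjusted p = 0.103, range 4.83e-06 to 0.103), with a log2 fold change of -2.78 that became -3.72 without ILC2 1.

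**Figure D4:**
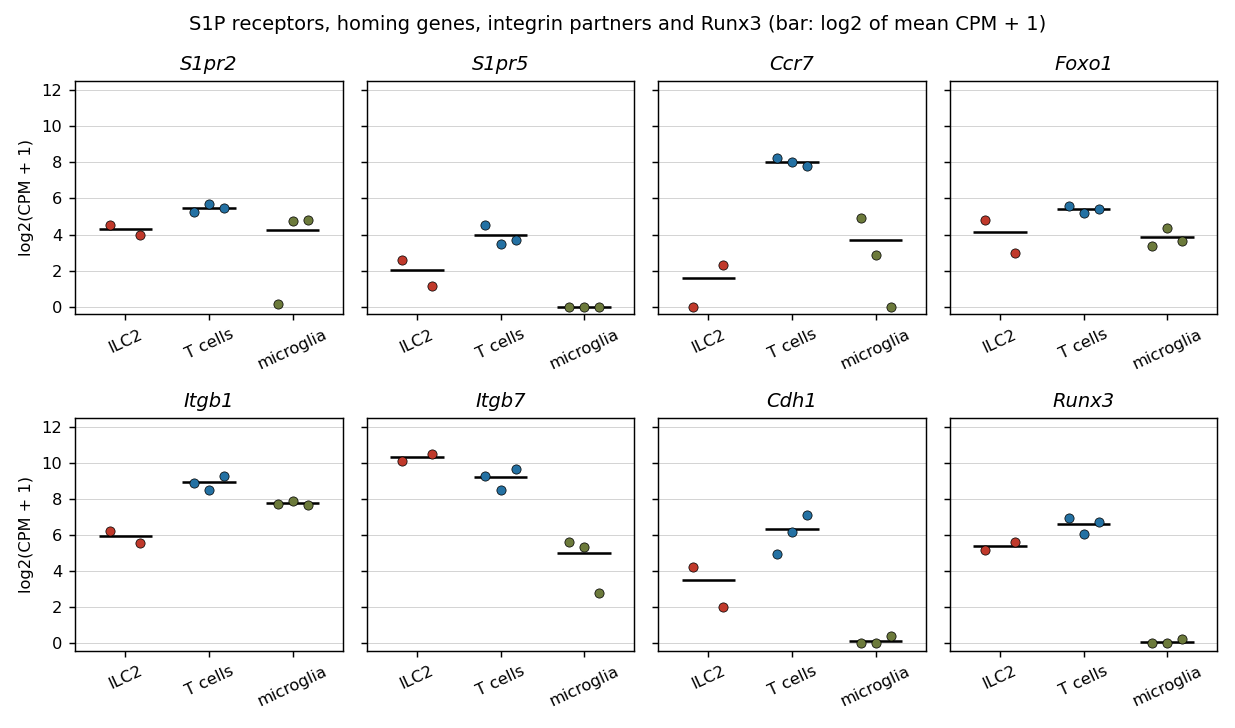
Levels of 8 related genes in each library as log2(CPM + 1), with ILC2 in red, T cells in blue and microglia in green; points are libraries and bars mark the log2 of the mean CPM + 1. Ccr7 and Itgb1 are lower in both ILC2 libraries than in any T cell library, whereas Itgb7 is higher in them.

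Regulators and markers of residency gave 1 call between ILC2 and T cells in the main test. Of 33 tested genes, 1 was lower, none was higher and 32 did not pass, with a median log2 fold change of 0.08. At an unadjusted p under 0.05 there were 9, and DESeq2 called 2, limma-voom 4 and the newer quasi-likelihood method 4. Icos, a costimulatory receptor, lay just short of the threshold at 1.76 ± 0.30 (adjusted p = 0.0504) and was singled out after its value was seen. The gene called was Xcl1, a chemokine of cytotoxic lymphocytes, at -6.29 ± 1.18 (adjusted p = 0.0424, edgeR), and it lost its call without any of the 5 libraries compared (adjusted p 0.0651 to 0.241, from a low of 8.52e-06 over the other settings). Prdm1, the gene of the repressor Blimp-1, was at 80.0 and 28.5 CPM in ILC2, 54.5, 65.9 and 68.8 in the T cells and 8.79, 41.7 and 14.6 in microglia, and passed in no comparison. Runx3, a transcription factor of resident and cytotoxic lymphocytes, was at 35.1 and 48.7 CPM in ILC2, 122, 64.7 and 106 in the T cells and 0, 0 and 0.208 in microglia. Its adjusted p was 0.651 for ILC2 against T cells, 0.000414 for ILC2 against microglia and 0.000154 for T cells against microglia. Tgfbr2, a receptor chain of TGF-beta, which induces CD103, was at 324 and 149 CPM in ILC2, 134, 143 and 192 in the T cells and 442, 556 and 299 in microglia, and was lower in T cells than in microglia (-1.47 ± 0.37, adjusted p = 0.0278), a call lost without any T cell library, microglia 1 or microglia 2 (adjusted p 0.0515 to 0.0923, from a low of 0.000551). Cxcr6, a chemokine receptor of resident lymphocytes, was at 3547 and 3100.4 CPM in ILC2, 1428, 1702 and 1184 in the T cells and 17.2, 8.89 and 24.7 in microglia. Its log2 fold change was 1.21 ± 0.38 for ILC2 against T cells, which did not pass (adjusted p = 0.294), and against microglia 7.62 ± 0.47 for ILC2 and 6.41 ± 0.44 for T cells. Over the list, 12 genes were higher and 4 lower in ILC2 than in microglia (median 1.43), and 11 higher and 6 lower in T cells than in microglia (median 0.78). Icos had no count in microglia and was at least 1620-fold higher in ILC2 and at least 478-fold higher in T cells, and Tgfbr1, the partner chain of Tgfbr2, was lower at -6.17 ± 0.59 in ILC2 and -6.20 ± 0.49 in T cells.

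Other RGS genes were measured beside Rgs1 and Rgs2. Of 18 listed, 10 were tested and the main edgeR test called none between ILC2 and T cells (median 0.76), while 2 had an unadjusted p under 0.05, DESeq2 called 2 and limma-voom and the newer quasi-likelihood method of edgeR 1 each. Against microglia none was higher and 2 were lower in ILC2 (median 0.55), and 1 was higher and 3 were lower in T cells (median -0.08). The higher gene was Rgs3, with a log2 fold change of 1.98 ± 0.39 for T cells (adjusted p = 0.00988, edgeR). Rgs5 had no count in T cells and was at 57.9 and 2.93 CPM in ILC2 and 47.8, 6.82 and 7.71 in microglia. Its adjusted p was 0.0158 for T cells against microglia and 0.0809 for ILC2 against T cells (edgeR). Rgs10, a regulator prominent in microglia, was at 77.2 and 192 CPM in ILC2, 85.1, 74.0 and 96.8 in the T cells and 946, 1183 and 914 in microglia, a log2 fold change of -2.91 ± 0.43 for ILC2 (adjusted p = 0.00231, edgeR; -3.72 without ILC2 2) and -3.57 ± 0.37 for T cells (adjusted p = 0.000295). Rgs19 was lower than in microglia by smaller steps, -1.30 ± 0.28 in ILC2 and -1.09 ± 0.24 in T cells, with the ILC2 call lost without ILC2 1 (adjusted p = 0.0584) or ILC2 2 (0.0811; range 3.95e-05 to 0.0811) and the T cell call lost without T cells 1 (0.0605) or T cells 3 (0.0637; range 6.07e-05 to 0.0637). Of 17 genes that couple these receptors to G proteins or switch them off, edgeR called none by either method between ILC2 and T cells (median -0.22), while 2 had an unadjusted p under 0.05, DESeq2 called 1 and limma-voom none. Against microglia 1 was higher and none lower in ILC2 (median -0.06), and 3 were higher and 1 lower in T cells (median -0.10). Rac2, a motility GTPase of blood cells, was at 1871 and 2051 CPM in ILC2, 3527, 3446 and 2744 in the T cells and 883, 514 and 794 in microglia, with a log2 fold change against microglia of 1.43 ± 0.29 for ILC2 (adjusted p = 0.0128, but 0.0565 without ILC2 2, range 0.000330 to 0.0565) and 2.15 ± 0.27 for T cells (adjusted p = 0.000781).

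Cd69, Klf2, Rgs1 and Rgs2 are also known to respond quickly to cell activation and to tissue dissociation. Of 23 tested immediate early and dissociation genes, the main edgeR test called none between ILC2 and T cells, with a median log2 fold change of -0.22, while 6 had an unadjusted p under 0.05, DESeq2 called 4, limma-voom 3 and the newer quasi-likelihood method of edgeR 2. Against microglia 1 was higher and 5 were lower in ILC2 (median -0.34), and 2 were higher and 5 lower in T cells (median -0.64). The lowest p in both was that of Cd83, an activation antigen of antigen-presenting cells, which was at 19.0 and 49.7 CPM in ILC2, 31.4, 23.7 and 31.97 in the T cells and 1074, 1007 and 726 in microglia. The ILC2 libraries were unlike in these genes: in ILC2 1 and ILC2 2, Fos was at 2293 and 1034 CPM, Junb at 3698 and 1642, and Zfp36 at 2081 and 509. All listed genes but Cd83, Dusp1, Dusp2, Egr2, Ier3 and Ier5 were higher in ILC2 1. Cd69, Klf2, Rgs1 and Rgs2 were also higher in ILC2 1. The part of activation and dissociation in the levels of the 8 genes was not tested.

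For each gene the tested genes with the most similar pattern were found by the root mean squared difference of centred log2(CPM + 1) over the 8 libraries, where the median over all tested genes was 1.27 to 3.40. Rab3ip, Il21r and Abcb1a were nearest to S1pr1 (0.514 to 0.596), and Igf2bp2, Tagap and Fcgrt to Klf2 (0.477 to 0.574). Il21r, a cytokine receptor, was at 17.3 and 26.8 CPM in ILC2, 135, 242 and 178 in the T cells and 238, 216 and 155 in microglia. Glmn, Aim1 and Gnl1 were nearest to S1pr4 (0.336 to 0.411), and Tnfrsf18, Ptpn22 and Pkp3 to Cd69 (0.559 to 0.684). Lrrc42, Atp2b4 and Ncapd2 were nearest to Itgae (0.400 to 0.545) and Slc14a1, Reck and Gm1966 to Itga1 (0.531 to 0.830). Hif3a, Rai2 and Mmp11 were nearest to Rgs1 (0.0980 to 0.207), all 3 below 5 CPM in every library, where the added 1 CPM shapes the pattern. Glb1, Oaz2 and Itm2b were nearest to Rgs2 (0.155 to 0.319), and Glb1, a lysosomal galactosidase, was at 178 and 192 CPM in ILC2, 63.5, 53.6 and 43.1 in the T cells and 142, 197 and 135 in microglia.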

How the data were processed

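The members and gene lists were chosen with earlier results of these data known. Per the submitters' processing notes, the authors' tools were STAR 2.5.3a, Cufflinks 2.0, DESeq2 1.1, FastQC 1.0.0 and bcl2fastq 2.20.0.422, and the build was mm10. What each did, how reads were counted and whether strand was used are not given in the sources used here. The values the authors deposited are raw counts, although the table's name calls them normalized: the values are whole numbers, and none from 1 to 100 is missing in any library. The rows for reads outside genes (53.8% to 61.0% of all counts) and ambiguous reads (0.338% to 1.23%) and 27 rows with symbols turned into dates were left out. The labels give 3 ILC2 samples, but only 2 columns carry that heading. 1 column whose heading, ILC1, matches no label was not used.

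Counts were scaled with TMM (factors 0.822 to 1.18), which adjusts each library to the bulk of its genes. The main test was edgeR's quasi-likelihood F test (edgeR 4.0.16, R 4.3.3), on 1 fit of 8 libraries and the 13000 genes whose mean count reached 10, with Benjamini-Hochberg adjustment over all of them. A gene was called when its adjusted p was under 0.05 and it moved by 1 log2 unit or more. The SE is the size of the log2 fold change over the root of F, and the common biological coefficient of variation was 0.967. For the lower bounds on fold changes, and the median given with bounds, a gene with no count in a population was set at 3 counts in each library. The tests used the counts unchanged. This floor covers counting error alone, as PCR copies are not independent molecules. Alternatives were DESeq2 1.42.0, limma-voom (limma 3.58.1), RLE factors, no filter, the newer quasi-likelihood method, only the 2 groups compared, and leaving out each library, 14 in all. Levels per kilobase use the GENCODE vM21 principal transcript. Of 145 listed genes, 6 were matched by an older symbol and Zfp683 was not analysed here. 1 gene that the rule names is not reported here. Named were the 8 genes in every comparison, set genes of the pathway, and some, not all, of the first 4 called genes by p in each list and comparison. The fit was tested on simulated data.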

Additional observations from a re-analysis of the deposited data

How the results depend on the processing

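No paired analysis was possible because the column headings carry no replicate numbers. Of the values of the 8 genes under the alternatives, 309 kept their direction and side of the threshold, 18 lost a call, 6 gained one and 3 turned direction, none of them called: Cd69 (-0.058) and Itgae (0.053) for ILC2 against T cells without ILC2 1, and Rgs1 (-0.10) for T cells against microglia without T cells 1. With 1 library left out these 3 values ran up to 0.63 for Cd69, down to -0.85 for Itgae and up to 0.27 for Rgs1. With 1 library left out, the genes called of the 8 numbered 2 to 4 for ILC2 against T cells, 3 to 6 for ILC2 against microglia and 1 to 4 for T cells against microglia, from 4, 4 and 3. The calls over all tested genes, 120, 1268 and 1695, became 62 to 121, 711 to 1270 and 1186 to 1762. For ILC2 against T cells DESeq2 called 528, no filter 235, the newer quasi-likelihood method 321 and limma-voom 292 (Klf2 lost its call there). For ILC2 against microglia these gave 2326, with the newer method 2251 and with limma-voom 2085, and for T cells against microglia DESeq2 gave 2713 and the newer method 2723. The causes were not tested. RLE factors moved the median of all genes by less than 0.1 on the log2 scale. Depth sets a floor of 3 counts, or 0.207 to 0.326 CPM, below which no level is resolved.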
